A study of Mus musculus with 6 samples.

Results

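Pramel6, Pramel7, Zscan4c, Zscan4d, Zscan4f, Tcstv1, Tcstv3, Zfp352, Tdpoz3 and Tdpoz4 are 10 genes of the early mouse embryo, named here in advance as 2 PRAME-like genes and 8 genes linked to the Zscan4 or two-cell state. A gene was measured where a probe set of the array was annotated to it and to no other gene, and the probe set was chosen by the highest mean over all 6 arrays, a step that left nothing to choose because each measured member had 1 such set. By this rule 5 of the 10 members were measured (Pramel6, Pramel7, Tcstv3, Zfp352 and Tdpoz3), out of 19938 genes on the array. Zscan4c, Zscan4d and Zscan4f were represented only by probe sets annotated to 5 Zscan4 genes together, Tdpoz4 only by one shared with Tdpoz8, and Tcstv1 by none.

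Both kinds of gene mark states that mouse ES cells, pluripotent lines derived from the blastocyst, can pass through. PRAME-like proteins are built of leucine-rich repeats; Pramel7 is known from the inner cell mass and from ES cells, where it is a target of LIF and STAT3 signalling and works with a cullin ubiquitin ligase to remove UHRF1, the partner of the maintenance DNA methyltransferase. Zscan4 proteins, with a SCAN domain and zinc fingers, appear in bursts in a small fraction of ES cells, together with other genes of the two-cell embryo, and are known for their part in telomere lengthening.

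RNA of wild-type (WT) cells and of Satb1-/- cells, which lack the chromatin organiser SATB1, was measured on 3 arrays each. All cells carried a HygroTK selection marker in the Oct4 locus, and all were grown in serum medium with LIF for 3 days on irradiated feeder cells under hygromycin, so that cells expressing the Oct4 locus were selected in both groups. The knockout arrays are labelled as clones 1-1, 1-2 and 2-1, with no statement of what the first number means, and no label says whether arrays within a group stem from separate cultures. The p-values thus rest on a spread among arrays that may be technical. Satb1 was lower in all 3 knockout arrays (4.38, 4.47 and 4.57) than in WT (5.12, 4.99 and 5.31), as log2 values. Pou5f1, the Oct4 gene, read 10.2 ± 0.28 in WT and 9.83 ± 0.07 in knockout (SD, n = 3 each), and the 8 ES cell markers listed here had a median level percentile of 98.7 among all genes. WT replicate 3 stood apart from the other arrays on the second principal component (29.4% of the variance; score -29.3, against 0.51 to 13.1). WT replicate 1 was the array at the end of the first component (36.2%; score -26.7, with WT replicate 2 next at -10.6), and it and WT replicate 3 had the lowest array weights (0.46 and 0.45). Results that rest on single arrays are given with and without them.

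Promoters are shown for the members on which the results turn: the neighbouring pair Pramel7 and Pramel6, which had their own probe sets, and the 3 Zscan4 members, which the array does not separate. Each line is the 250 bases before the annotated start, 5′ to 3′ on the gene's strand (RefSeq, GRCm38.p6). Capitals mark matches on either strand to TATAAA (the TATA motif), CCAAT, TTCNNNGAA (the core bound by STAT factors) and TGATTCAA.
Pramel7 (chr2:87492419-87492668, minus strand): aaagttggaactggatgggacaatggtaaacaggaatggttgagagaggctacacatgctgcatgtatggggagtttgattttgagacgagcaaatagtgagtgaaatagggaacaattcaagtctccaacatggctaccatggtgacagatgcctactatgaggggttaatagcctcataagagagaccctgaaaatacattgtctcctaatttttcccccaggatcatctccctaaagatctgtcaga
Pramel6 (chr2:87506315-87506564, plus strand): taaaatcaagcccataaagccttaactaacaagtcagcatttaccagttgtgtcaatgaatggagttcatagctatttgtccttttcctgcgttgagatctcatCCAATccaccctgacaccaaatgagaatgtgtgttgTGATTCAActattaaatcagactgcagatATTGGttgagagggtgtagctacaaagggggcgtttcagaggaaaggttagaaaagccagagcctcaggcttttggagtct
Zscan4c (chr7:11005495-11005744, plus strand): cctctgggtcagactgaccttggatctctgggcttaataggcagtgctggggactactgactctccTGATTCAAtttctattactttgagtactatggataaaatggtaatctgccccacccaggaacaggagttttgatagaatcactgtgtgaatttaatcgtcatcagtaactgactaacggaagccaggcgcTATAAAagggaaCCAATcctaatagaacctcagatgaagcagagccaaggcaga
Zscan4d (chr7:11166149-11166398, minus strand): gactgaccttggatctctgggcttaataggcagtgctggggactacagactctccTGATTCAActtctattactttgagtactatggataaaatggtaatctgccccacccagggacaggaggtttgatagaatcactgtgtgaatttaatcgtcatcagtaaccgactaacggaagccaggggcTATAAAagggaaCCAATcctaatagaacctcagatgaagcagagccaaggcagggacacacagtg
Zscan4f (chr7:11397665-11397914, plus strand): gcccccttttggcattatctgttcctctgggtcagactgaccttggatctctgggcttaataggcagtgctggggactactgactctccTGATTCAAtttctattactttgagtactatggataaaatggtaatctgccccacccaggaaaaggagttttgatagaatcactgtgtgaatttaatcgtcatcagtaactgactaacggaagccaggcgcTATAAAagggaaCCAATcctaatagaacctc

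The Zscan4 promoters were nearly alike. Over the stretch that the windows share, Zscan4c and Zscan4f were identical at 226 of 227 positions (99.6%), Zscan4c and Zscan4d at 232 of 239 (97.1%), and Zscan4d and Zscan4f at 209 of 216 (96.8%). Each Zscan4 window held TATAAA, found in 12.4% of the 32851 promoters of the table, and CCAAT, found in 33.8%. Pramel6 and Pramel7 start 14147 bases apart and are transcribed away from each other, and the longest run their promoter windows share is 10 bases. Neither held TATAAA, the Pramel6 window held CCAAT at 2 places, and the Pramel7 window held none of the motifs searched. TTCNNNGAA, present in 7.02% of all promoters, was in none of the windows of the 7 members that the table lists. TGATTCAA was not a planned motif: it is the longest run that the Pramel6 window shares with all 3 Zscan4 windows, at positions -110 to -103 from the Pramel6 start and -184 to -177 from the Zscan4c start. It was present in 0.539% of all promoters, and the way it was picked favours a rare sequence. Its letters open the motif known for DUX, a transcription factor of the two-cell stage. These matches describe letters only.

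Pramel7 was higher in the knockout arrays. It read 4.12, 4.13 and 4.51 in WT replicates 1, 2 and 3, and 5.33, 5.42 and 5.39 in knockout replicates 1-1, 1-2 and 2-1. All knockout values lay above all WT values, and 15.1% of all genes had groups apart in either direction. The knockout values lay close together while WT replicate 3 stood above the other WT arrays. The means were 4.26 ± 0.22 and 5.38 ± 0.05 (SD, n = 3 each), a difference of 1.13 log2 units (SE 0.13, 95% interval 0.85 to 1.41), or 2.18-fold, with a limma adjusted p of 0.00159 over all genes. The difference ranked 60 by size and the p ranked 44 among 19938 genes. Pramel7 was known to be called when the members were listed, so its p is not independent evidence. Of all genes 0.923% (184) were called higher in knockout and 0.476% (95) lower; with each array centred on its median the counts were 116 and 30. An exact two-sided permutation test of 3 against 3 arrays gave 0.10, the smallest value it can reach.

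Pramel6, the neighbour and close relative of Pramel7, did not pass the test with all arrays. Its values were 4.10, 4.11 and 5.18 in WT replicates 1, 2 and 3, and 4.65, 4.64 and 4.72 in knockout replicates 1-1, 1-2 and 2-1. The knockout arrays lay close together, above 2 of the WT arrays and below WT replicate 3, so the groups overlapped. The difference was 0.20 (SE 0.24, 95% interval -0.34 to 0.74, limma adjusted p = 0.888). Without WT replicate 3 it was 0.56 and passed (limma adjusted p = 0.0217), in a comparison that called 2.41% of genes against 1.4% with all 6 arrays. Leaving out any other array gave 0.02 to 0.21 and no call. Pramel7 differed by 1.06 to 1.25 and stayed called with any one array left out; without WT replicate 3 it differed by 1.25 (limma adjusted p = 2.42e-04). Both genes were higher in WT replicate 3 than in the mean of the other WT arrays, Pramel6 by 1.07 and Pramel7 by 0.39.

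**Figure D1:**
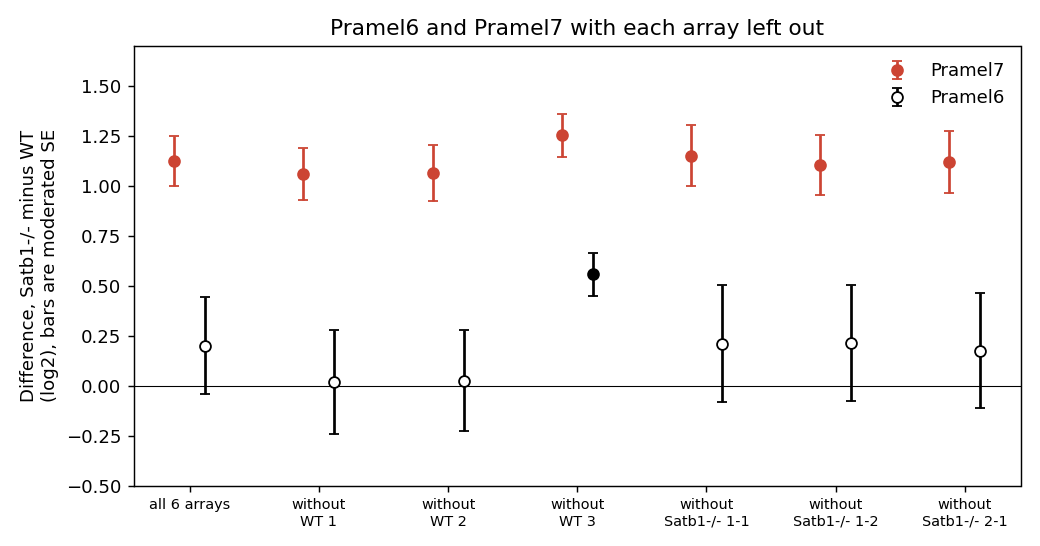
Difference of Pramel7 (red) and Pramel6 (black) between knockout and WT, in log2 units, with all 6 arrays and with each array left out; bars are the moderated SE and filled points passed limma's adjusted p of 0.05. Pramel7 stayed between 1.06 and 1.25 and filled throughout, and Pramel6 was filled only without WT replicate 3, at 0.56.

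The genes beside the pair were olfactory receptor genes, the odour receptors of sensory neurons. The 9 measured neighbours of Pramel7 within 5 measured genes on each side, Pramel6 set aside, differed by -0.11 to 0.43 with a median of 0.06, and 0 of them passed limma's test. They were dim, from level percentile 1.44 (Olfr1130) to 23.6 (Olfr153).

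Pramel7 was itself a gene of middling signal, at percentile 45.7 of the mean levels of all genes, with Pramel6 at 40.8. Signals of different probe sets also reflect their probes. Background signal left in the values compresses differences of dim genes, so that the log2 difference of such a gene can understate its change. Whether this holds for Pramel7 was not tested.

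The measured Zscan4-linked members showed no called difference, and all were dim. Of the 3, 0 passed limma's test and 0 had an unadjusted p under 0.05, against 1.4% and 10.5% of all genes. At these shares counts of 0 among 3 genes say little about the members. Tcstv3, of a family of transcripts that vary at the two-cell stage, read 3.53, 3.44 and 3.45 in WT replicates 1, 2 and 3 and 3.18, 3.15 and 3.40 in knockout replicates 1-1, 1-2 and 2-1. Its groups did not overlap, as for 15.1% of all genes, and the difference was -0.23 (SE 0.11, 95% interval -0.47 to 0.01, limma adjusted p = 0.521). Zfp352, a zinc finger gene of the two-cell embryo, read 3.77, 3.90 and 3.55 in WT and 3.72, 3.70 and 3.77 in knockout. The knockout values lay inside the WT range, with a difference of -0.01 (95% interval -0.27 to 0.25, limma adjusted p = 0.994). Tdpoz3, which encodes a protein with TRAF and POZ domains, read 3.34, 2.95 and 3.13 in WT and 3.18, 3.24 and 3.13 in knockout. Its groups overlapped, and the difference was 0.04 (95% interval -0.23 to 0.31, limma adjusted p = 0.967).

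The level percentiles of these 3 genes were 13.5 for Tcstv3, 21.8 for Zfp352 and 9.23 for Tdpoz3. In bulk RNA a gene expressed in few cells gives a low signal, and a change in the number of such cells cannot be told apart from a change in the RNA per cell.

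**Figure D2:**
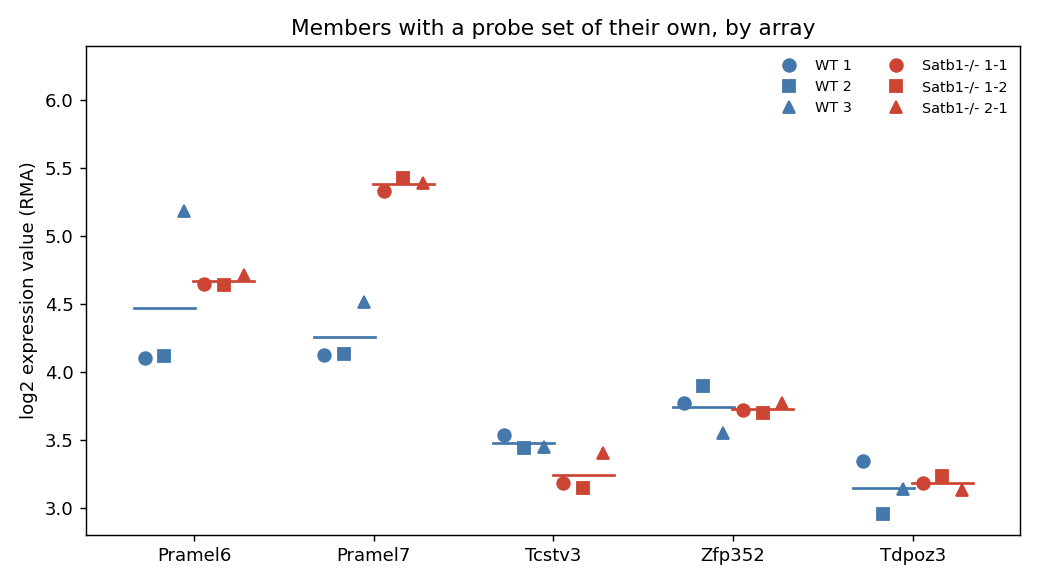
Log2 expression value of the 5 members with a probe set of their own on each array; blue symbols are WT replicates, red symbols knockout replicates, and lines are group means. For Pramel7 the knockout arrays (5.33 to 5.42) sit above all WT arrays, for Pramel6 WT replicate 3 (5.18) is the highest, and the other 3 genes lie between 2.95 and 3.90.

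The Zscan4 genes, read together, were highest in WT replicate 3. The brightest of the 3 shared probe sets read 5.43, 4.96 and 7.13 in WT replicates 1, 2 and 3 and 4.67, 5.09 and 5.05 in knockout replicates 1-1, 1-2 and 2-1. WT replicate 3 exceeded the next highest array 3.24-fold, while the other 5 arrays overlapped between the groups. The other shared sets gave the same picture, with 6.65 and 6.64 in WT replicate 3 and gaps of 1.44 and 1.41 log2 units to the next array. These sets carry the same 5 gene symbols, so they are not independent readings, and no value belongs to one Zscan4 gene.

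Between the groups the shared Zscan4 sets differed by -0.90, -0.85 and -0.83 (SE 0.51, 0.48 and 0.48). With limma over all probe sets, which called 0.233% of them, the adjusted p lay between 0.724 and 0.732. Without WT replicate 3 the differences were -0.26, -0.26 and -0.24, with adjusted p between 0.628 and 0.699. Without WT replicate 2 they were -1.34, -1.30 and -1.29, with unadjusted p of 0.031, 0.019 and 0.018 and adjusted p between 0.417 and 0.497. The direction was down with any 1 array left out, and the size depended on which WT array was left out. A gap of at least 1 log2 unit between WT replicate 3 and each other array was found in 21 of 19938 genes (0.105%).

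The set shared by Tdpoz4 and Tdpoz8 did not have that peak. It read 3.85, 3.89 and 3.53 in WT replicates 1, 2 and 3 and 3.57, 3.74 and 3.62 in knockout replicates 1-1, 1-2 and 2-1, where WT replicate 3 is the lowest array (difference -0.11, adjusted p over all probe sets 0.896). The Tdpoz genes with a set of their own that are not members also passed no test. Tdpoz1 differed by -0.36 with groups that did not overlap (limma adjusted p = 0.403), Tdpoz2 by -0.16 and Tdpoz8 by -0.07; Tdpoz8 was highest in WT replicate 3 (3.72), 0.29 above the next array. Tcstv3, Zfp352 and Tdpoz3 likewise had no peak in WT replicate 3, which stood -0.04, -0.28 and -0.01 from the mean of the other WT arrays.

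**Figure D3:**
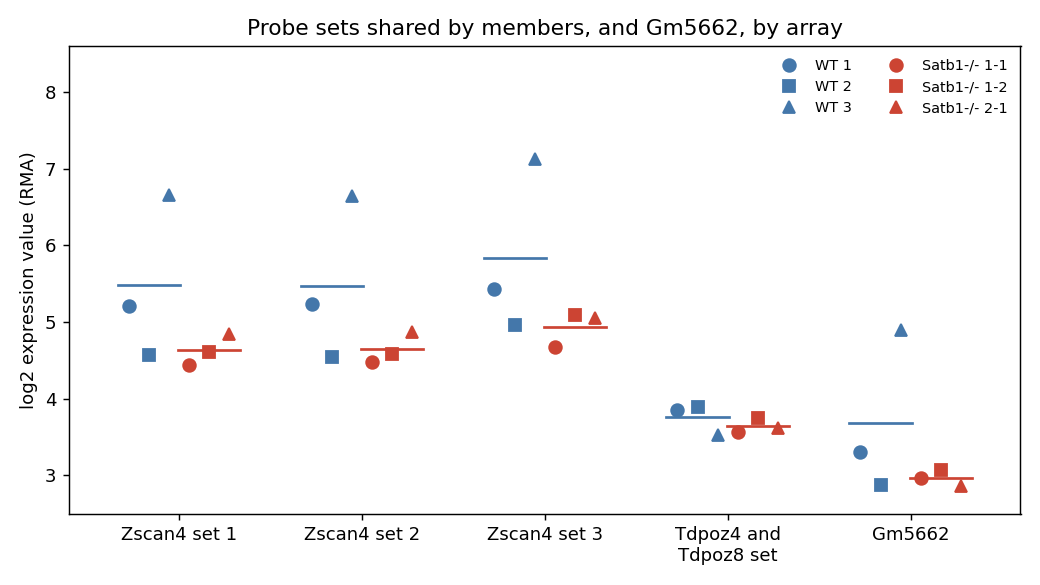
Log2 expression value on each array of the 3 probe sets annotated to 5 Zscan4 genes together, of the set shared by Tdpoz4 and Tdpoz8, and of Gm5662; blue symbols are WT replicates, red symbols knockout replicates, and lines are group means. WT replicate 3 (triangle) reads 6.64 to 7.13 on the Zscan4 sets and 4.89 for Gm5662, above all other arrays, but is the lowest array on the Tdpoz set.

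Genes whose values followed the members were sought among the 1492 genes, members aside, with an SD of at least 0.3 over the 6 arrays. The 5 genes most like Pramel7 by Pearson's r were Foxm1 (0.996), Mrpl51 (0.995), Rad52, Strap and Usp5 (0.994 each). All 5 lie on chromosome 6, while Pramel7 lies on chromosome 2. Foxm1, a cell cycle transcription factor, read 6.39, 6.25 and 6.66 in WT replicates 1, 2 and 3 and 7.51, 7.53 and 7.54 in knockout. With 3 arrays on each level, any gene with an even step between the groups scores high, so that the order among such genes says little.

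The genes most like Pramel6 were Polr2j, Scd2, Gpx1, Ube2cbp and Tor1b (r 0.977 to 0.994). Scd2, a fatty acid desaturase gene, read 9.28, 9.31 and 10.1 in WT replicates 1, 2 and 3 and 9.76, 9.82 and 9.86 in knockout, the same order of WT replicate 3, knockout and the other WT arrays. Those most like the brightest shared Zscan4 set were Zcchc3, Gm5662, Ascl2, Pnpla6 and Rhox9 (r 0.970 to 0.984). Without WT replicate 3 their r lay between 0.483 and 0.946. The searches for Pramel6 and for the shared set were added after their values were seen. Gm5662 is also in the list of other two-cell-state genes below. It read 3.30, 2.87 and 4.89 in WT replicates 1, 2 and 3 and 2.97, 3.07 and 2.86 in knockout, with WT replicate 3 above all others by 1.58.

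Markers of other cell types were read on the same arrays. Of 10 trophectoderm genes, of the outer layer of the blastocyst, 7 were highest in WT replicate 3, as were 20.8% of all genes. The mean level of the list was 5.84, 5.87 and 6.54 in WT replicates 1, 2 and 3 and 5.33 to 5.47 in knockout. The keratin genes Krt8 (-2.72) and Krt18 (-2.48) of this list fell in knockout by limma (adjusted p = 0.00209 and 0.00514). The difference was above 0 for 3 of the 10, among them the transcription factor genes Eomes (0.55) and Tfap2c (0.33). Their groups were apart with knockout higher, and 15.1% of all genes had groups apart in either direction. Eomes and Tfap2c did not pass (limma adjusted p = 0.0680 and 0.246). Cdx2, the defining regulator of that layer, was dim throughout (4.42 to 4.84 in WT, 4.29 to 4.48 in knockout). The 13 measured feeder fibroblast markers had a mean level of 6.31, 6.48 and 6.16 in WT replicates 1, 2 and 3 and 6.44 to 6.72 in knockout. Of them 8 were lowest in WT replicate 3 and 1 was highest, against 21.2% and 20.8% of all genes. All 13 had a positive difference (0.05 to 0.62), and 0 passed limma's test. An unadjusted limma p under 0.05 was found for 4 of the 13, a larger share than the 10.5% of all genes. The mean of the 9 primitive endoderm markers lay between 5.14 and 5.26 in WT and between 5.25 and 5.38 in knockout. Lama1, a laminin gene of that list, rose by 1.53, while 5 of the 9 had a difference below 0, the median was -0.02, and the collagen gene Col4a1 (-0.43) did not pass (limma adjusted p = 0.195). The part of these cells in the values of Pramel6, Pramel7 and the Zscan4 sets was not tested.

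The PRAME family was not raised as a whole. Besides Pramel6 and Pramel7, 15 family genes had a probe set of their own; 0 passed limma's test and 1 had an unadjusted p under 0.05 (10.5% of all genes did). Their differences lay between -0.42 (Pramel19) and 0.08, with 4 of 15 above 0 and a median of -0.13, against a median of -0.00 over all genes. In 0 of the 15 were the groups apart, against 15.1% of all genes. Most of the 15 were dim, with a median level percentile of 16.4. The brightest, Pramel13, read 5.52, 5.80 and 6.99 in WT replicates 1, 2 and 3 and 5.83, 5.97 and 6.08 in knockout. There too WT replicate 3 was highest, 0.91 above the next array, and the other arrays overlapped. Pramel19 (4.98 in WT replicate 3) and Pramel12 (5.79) were highest in that array as well, while 5 of the 15 were lowest in it. In the narrower PRAME list written for this work, 11 of 33 names were measured, with 0 called and a median of -0.14. Over all genes WT replicate 3 was the highest array for 20.8% and the lowest for 21.2%.

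A further 53 probe sets were annotated to several PRAME family genes at once, many with the same values, so that they held 39 distinct readings. Over all probe sets 0 of the 53 passed limma's test and 0 had an unadjusted p under 0.05, with differences between -0.37 and 0.42. WT replicate 3 was the lowest array in 46 of the 53 and the highest in 4, repeated readings counted, against 21.2% and 20.8% of all genes. Over all probe sets the array median was lowest in WT replicate 3 (4.69) and highest in WT replicate 1 (4.85). The part of this offset in the count was not tested. In the place of WT replicate 3 most of these sets ran opposite to Pramel6 and Pramel13.

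**Figure D4:**
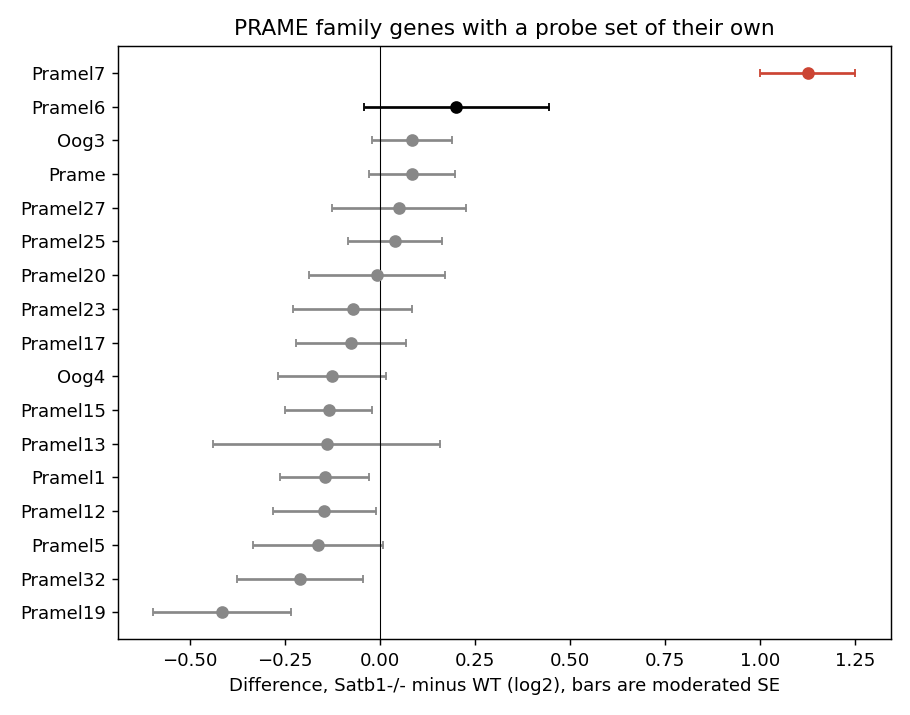
Difference between knockout and WT, in log2 units with the moderated SE, of the 17 PRAME family genes with a probe set of their own; red passed limma's adjusted p of 0.05, black is the other member, grey are genes that are not members. Pramel7 (1.13) stands to the right of all others, which lie between -0.42 and 0.20.

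Other genes of the two-cell state were described from a list of 45 names, 21 of them measured under the rule. Of these 0 passed limma's test and 2 of 21 had an unadjusted p under 0.05, close to the 10.5% of all genes; the differences lay between -0.72 (Gm5662) and 0.72 (Obox6), with a median of -0.10. Obox6, an oocyte homeobox gene, read 3.50, 3.54 and 4.02 in WT replicates 1, 2 and 3 and 4.10, 4.76 and 4.35 in knockout. Its groups did not overlap (limma adjusted p = 0.113), and without WT replicate 3 it was the 1 gene of the list that passed. Arg2, an arginase gene often raised in two-cell-like cells, read 3.44 ± 0.08 in WT and 3.44 ± 0.09 in knockout (SD, n = 3 each).

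Known activators and repressors of the two-cell state were bright and did not pass the test. Of 32 genes 0 rose and 0 fell by limma, 7 of the 32 had an unadjusted p under 0.05, against 10.5% of all genes, and the median difference was -0.00. Dppa2, an activator, read 9.52 ± 0.49 and 9.54 ± 0.12, and its partner Dppa4 8.36 ± 0.20 and 7.96 ± 0.12 (SD, n = 3 each; limma adjusted p = 0.234 for Dppa4). Trim28, the corepressor of many retroelements, differed by 0.12, the histone methyltransferase gene Setdb1 by -0.13, the demethylase gene Kdm1a by 0.08 and Mga, a repressor of germline genes, by -0.45 (limma adjusted p = 0.204). The telomere maintenance list held 14 measured genes and also included the meiotic genes Spo11, Dmc1 and Smc1b. Of the 14, 0 passed and 2 had an unadjusted p under 0.05, with a median of -0.03. Differences lay between -0.32 (Terf2) and 0.47 (Smc1b). Tert, the catalytic subunit of telomerase, differed by 0.04.

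Lists linked to Pramel7, of LIF and STAT3 signalling and of its ligase and DNA methylation, were given in the same way. Whether any of their genes acts on Pramel7 was not tested. The LIF and STAT3 list held 15 measured genes, of which 4 rose and 0 fell (0.923% and 0.476% of all genes did), with a median of 0.21. Those that rose were the transcription factor genes Klf4 (0.97), Tfcp2l1 (0.88) and Klf5 (0.60) and the feedback inhibitor gene Socs3 (0.60). Klf4, Tfcp2l1 and Klf5 are counted again in the naive pluripotency list below, so these list counts are not separate results. Klf5 read 8.27, 8.25 and 8.19 in WT replicates 1, 2 and 3 and 8.75, 8.87 and 8.88 in knockout, with little spread in either group. The receptor subunit genes Lifr and Il6st (0.27 and 0.32) and Stat3 itself (0.21) did not pass (limma adjusted p = 0.340, 0.538 and 0.607). The calls of all 4 risen genes depended on the arrays: Klf4 kept its call in 1 of 6 cases with an array left out, Socs3 in 2, and Klf5 and Tfcp2l1 in 3 each. The count of the list was 0 without knockout 1-2 or 2-1, 1 without knockout 1-1 or WT replicate 1, 3 without WT replicate 2 and 4 without WT replicate 3. The lowest differences in those cases were 0.80 for Klf4, 0.54 for Socs3, 0.57 for Klf5 and 0.76 for Tfcp2l1.

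The list of the PRAMEL7 ligase and of DNA methylation held 15 measured genes, with a median of 0.05. Of these 1 rose and 1 fell (0.923% and 0.476% of all genes did), and 6 of the 15 had an unadjusted p under 0.05, against 10.5% of all genes. Uhrf1, whose protein PRAMEL7 is known to remove, read 8.86, 8.74 and 9.24 in WT replicates 1, 2 and 3 and 9.34, 9.14 and 9.18 in knockout. Its groups overlapped, with a difference of 0.27 (limma adjusted p = 0.574), and the array reads its RNA, not its protein. The ligase genes Cul2 (0.01), Rbx1 (-0.03), Eloc (0.14) and Elob (0.12) differed by less than their WT spread. Elobl, annotated as like the adaptor gene Elob, rose by 1.58, and its 10 nearest measured genes on chromosome 11 had a median difference of 0.23. Dnmt3a, a de novo DNA methyltransferase gene, fell by 0.94, from 7.92, 7.65 and 8.36 to 7.29, 6.81 and 7.03. Dnmt3b differed by -0.51 and Dnmt1 by -0.02, neither past the test (limma adjusted p = 0.332 and 0.982). Dnmt3l went the other way, by 0.43 with groups that overlapped (limma adjusted p = 0.354). With an array left out it passed only without WT replicate 3. Elobl and Dnmt3a each kept the call in 2 of 6 cases with an array left out (1.36 to 1.95 and -1.10 to -0.74).

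The naive pluripotency list marks the ES cell state in which Pramel7 is found. Of its 17 genes 9 rose and 0 fell (0.923% and 0.476% of all genes did), with a median of 0.60. The largest were Tbx3 (1.59), Nr5a2 (1.32), Nanog (1.09) and Prdm14 (1.09). Prdm14 lost its call without knockout 1-2 and without knockout 2-1. With an array left out the count was 5, 7 and 10 without WT replicates 1, 2 and 3. It was 5, 4 and 3 without knockout 1-1, 1-2 and 2-1. The calls over all 19938 genes moved as well, with 356 higher without WT replicate 3 and 74 without knockout 2-1. The list median stayed between 0.57 and 0.64. Nanog, Tbx3 and Nr5a2 passed in all 6 cases. The 10 nearest measured genes of Nanog, on chromosome 6, had a median difference of 0.45. Dppa3, another risen gene of the list (0.67), also lies on chromosome 6, and its 10 nearest measured genes had the same median. Both medians were identical to every digit, so these neighbour groups probably share genes and are not separate readings. Dppa3 kept its call in 1 of 6 cases. The lists were written with earlier results on these arrays known, so these counts are a description and no separate evidence.

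**Figure D5:**
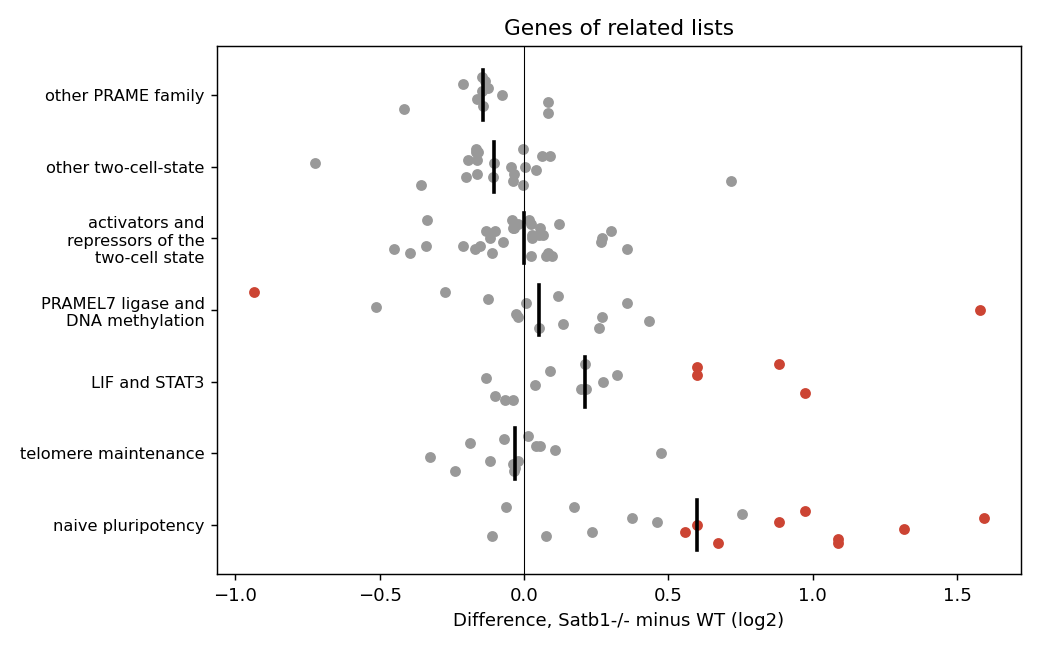
Difference between knockout and WT, in log2 units, of every measured gene in 7 lists related to the members; red points passed limma's adjusted p of 0.05, grey points did not, and black lines are list medians. Red points are found in the LIF and STAT3 list (4), the naive pluripotency list (9) and the PRAMEL7 ligase and DNA methylation list (1 on each side), and in none of the other 4 lists. Klf4, Klf5 and Tfcp2l1 are red points in both the LIF and STAT3 list and the naive pluripotency list.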

How the data were processed

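RNA of 6 samples was measured on 1-colour arrays, 3 WT and 3 Satb1-/-. Each probe set has 1 deposited log2 expression value in every sample; the authors obtained it by RMA, per the submitters' processing notes, whose settings are not given here. Arrays have no read depth, and their number limits the precision. Of 35557 probe sets, 21789 were annotated to 1 gene symbol, 1621 to several and 12147 to none. The probe set with the highest mean was kept for each of 19938 genes.

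The comparison of groups used lmFit and eBayes of limma 3.58.1 under R 4.3.3, without covariates and without removing dim genes, with Benjamini-Hochberg adjustment over all genes and a call at an adjusted p under 0.05; the steps were tested on simulated data. Shared probe sets were read from a fit over all probe sets. Differences are knockout minus WT. Text names all members, up to 4 called genes of each list and the 5 genes most like a member. Dppa3, Gm5662, Obox6, Pramel13, Pramel19 and the genes that did not pass were named after their values were seen. Members and lists were chosen with earlier results of these data known. Promoters (250 bases) came from RefSeq for 7 members. Alternatives covered left-out arrays, array weights, scaling, dim genes, variance, probe sets and thresholds. Replicate numbers do not recur across groups, so no pairing was fitted.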

Additional observations from a re-analysis of the deposited data

How the results depend on the processing

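Pramel7 kept its direction in all alternatives run and lost its call only with a floor at the 20th percentile (1.13, limma adjusted p = 0.0917), which also left 0 Pramel genes called; its difference was 1.06 to 1.25 with an array left out, and the number of Pramel genes called was 1 to 2. Pramel6 passed only without WT replicate 3. Of the 3 measured Zscan4-linked members 0 were called in any alternative that held them, and the other 5 of the 8 could not be tested. Their dim signal left little room for a call. The Tdpoz3 means (3.14 in WT and 3.18 in knockout) and the Tcstv3 knockout mean (3.24) lay below the floor value of 3.41. No value could be had for the members among genes above the median level, since none of them lies there. Zfp352 turned sign around 0 with knockout 1-1 and 1-2 averaged (0.0009), with arrays centred (0.0091), after a second quantile normalization (0.0035) and with an array left out (-0.10 to 0.069), as did Tdpoz3 with an array left out (-0.057 to 0.14). The genes called higher and lower (184 and 95) came to 373 and 235 under array weights, 90 and 27 with those knockout arrays averaged, 116 and 30 with arrays centred, 236 and 148 after quantile normalization, 27 and 7 with the floor, 68 and 15 over all probe sets, 86 and 23 at an adjusted p under 0.01, 313 and 171 under 0.10, and 74 to 356 and 19 to 124 with an array left out. The share of higher calls was 65.9%, against 79.5% with arrays centred. The cause was not tested. No paired analysis was possible because the groups share no replicate numbers.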
